A study of Mus musculus with 8 samples.

Results

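The Hox genes encode homeodomain transcription factors that lie in 4 clusters, and each gene is numbered by its paralogue group, from the anterior genes at one end of a cluster to the posterior genes at the other. Along the body axis the order of the genes in a cluster matches the order of their anterior expression limits, so that low-numbered genes are used in the hindbrain and pharyngeal arches and high-numbered genes in the trunk, limbs and tail. Polycomb complexes keep the clusters silent where they are not used, and the neural crest that fills the first pharyngeal arch, from which the molars and jaws grow, is known as a Hox-negative population. The genes described here are all 39 rows of the deposited count table whose symbol is Hoxa, Hoxb, Hoxc or Hoxd followed by a number, out of 35896 genes in the table.

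The counts came from mouse molar tooth germs dissected at E12.5 or E13.5 (days of embryonic development) from embryos carrying BRE-GFP, a transgene that reports BMP-Smad activity by green fluorescence, and kept in culture with 1 of 3 agents for 1 day. The 4 groups were E12.5 germs in the vehicle DMSO, E12.5 germs in SB431542, an inhibitor of the type I receptors for TGF-beta, activin and nodal, E12.5 germs in SIS3, which blocks Smad3, and finally E13.5 germs in DMSO. All embryos carried the reporter, no sorting of cells is mentioned, and neither the doses nor the number of germs in a library are stated in the labels. The TruSeq RNA kit was used for SIS3 and the SMARTer low input kit for every other library, so an effect of SIS3 and an effect of the kit cannot be told apart.

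Each group has 2 columns, but in the 3 SMARTer groups the paired columns differed in total by 0.00168% to 0.00749%, against 44.5% between the SIS3 columns. For protein-coding genes with 1 transcript, the median squared difference between paired columns was 1.08 to 1.15 times its binomial value in these groups and 8.94 times in SIS3. For genes with 2 to 6 transcripts it was 1.48 to 1.87 times and for genes with 7 or more 2.36 to 3.12 times, above sampling noise but below the 9.99 and 16.0 times of SIS3, and 15 of the 39 Hox genes have 1 transcript. Means were higher than medians. For protein-coding genes with 1 transcript the mean was 1.65 times in E12.5 DMSO, 1.48 in SB431542, 1.30 in E13.5 DMSO and 21.6 in SIS3. The labels number the columns as replicates, and no source used here says whether a pair came from separate libraries. Here each of those pairs was summed and counted as 1 library, a choice that sets which calls are made below and that leaves 5 libraries of 30975010 counts for E12.5 DMSO, 28161788 for SB431542, 5995709 and 9427262 for SIS3, and 17519118 for E13.5 DMSO. Counted so, only SIS3 has replicate libraries, and whether they came from separate cultures is not stated. The p-values therefore measure the spread between them, which the test pools over all genes kept. Hox genes at 0 in both SIS3 libraries, such as Hoxa7, Hoxa2, Hoxb6 and Hoxd10, show no spread there, so their p-values rest on the pooled value. All 7 markers of odontogenic mesenchyme were present in every library, with a summed level in E12.5 DMSO of 3270 CPM, counts scaled to a library total of 1000000. In bulk samples such as these, fewer cells of a type and less RNA per cell cannot be told apart.

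The clusters occupy, on GRCm38, chromosome 6 from 52155590 to 52260880 (Hoxa, 11 genes), chromosome 11 from 96194316 to 96368256 (Hoxb, 10 genes), chromosome 15 from 102921103 to 103036852 (Hoxc, 9 genes) and chromosome 2 from 74668310 to 74765142 (Hoxd, 9 genes). RefSeq promoter sequences (GRCm38.p6) matched 22 of the 39 genes in 24 windows of 250 bases upstream of a start. The Hox windows held from 2 to 35 CpG dinucleotides and had a median G and C content of 58.6%, against 52.4% over all 32841 windows of the same length, whose median CpG number was 6. Below are the windows of Hoxd8 and Hoxd4, the 2 Hox genes with most counts at E12.5, and of Hoxd10 and Hoxa2, which had counts mainly at E13.5. They overlap no exon of the GENCODE M21 annotation and are printed 5′ to 3′ on the gene's strand with CpG in capitals.

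Hoxd8, chr2:74704365-74704614, plus strand: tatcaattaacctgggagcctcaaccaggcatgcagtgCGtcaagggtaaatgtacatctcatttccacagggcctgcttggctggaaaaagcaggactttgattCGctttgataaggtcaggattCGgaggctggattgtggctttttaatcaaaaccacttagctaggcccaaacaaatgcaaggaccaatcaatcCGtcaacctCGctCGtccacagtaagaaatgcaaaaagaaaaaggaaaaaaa

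Hoxd4, chr2:74721728-74721977, plus strand: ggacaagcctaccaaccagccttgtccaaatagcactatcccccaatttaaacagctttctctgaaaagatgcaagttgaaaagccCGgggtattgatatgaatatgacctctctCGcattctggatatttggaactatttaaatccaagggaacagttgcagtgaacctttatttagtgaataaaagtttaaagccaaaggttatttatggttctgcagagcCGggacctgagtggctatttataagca

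Hoxd10, chr2:74691641-74691890, plus strand: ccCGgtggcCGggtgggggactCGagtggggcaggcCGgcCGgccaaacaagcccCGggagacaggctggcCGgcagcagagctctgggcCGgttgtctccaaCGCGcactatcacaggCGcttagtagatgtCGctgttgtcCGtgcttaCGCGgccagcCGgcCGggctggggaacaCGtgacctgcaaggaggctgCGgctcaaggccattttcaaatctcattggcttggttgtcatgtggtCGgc

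Hoxa2, chr6:52164832-52165081, minus strand: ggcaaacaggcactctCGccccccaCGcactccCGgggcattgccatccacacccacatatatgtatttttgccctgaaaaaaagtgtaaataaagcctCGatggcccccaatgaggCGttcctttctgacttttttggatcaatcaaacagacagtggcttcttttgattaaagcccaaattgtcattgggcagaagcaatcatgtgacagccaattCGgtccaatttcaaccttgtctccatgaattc

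The 4 windows differ in CpG content, with 6 in Hoxd8, 3 in Hoxd4, 20 in Hoxd10 and 6 in Hoxa2. Motifs of Smad, Pbx and Hox proteins and the TATA box were searched on both strands, without regard to overlap between motifs. The Smad motif CAGAC was in 7 of the 24 Hox windows and in 42.2% of all windows. The GC-rich Smad motif GGCGCC was in 5 of 24 and in 9.59% of all, and the palindrome GTCTAGAC was in 0 of 24 and in 0.167% of all. TGATNNAT, a joint motif of Pbx and Hox proteins, was in 4 of 24 and in 7.69% of all, and TATAAA was in 4 of 24 and in 12.4% of all. Of the windows printed, Hoxa2 held CAGAC and TGATNNAT once each, Hoxd4 held TATAAA once, and Hoxd8 and Hoxd10 held no searched motif.

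Hox transcripts were at very low levels in the molar germs in all 4 groups. The 39 genes together had 149 counts in E12.5 DMSO, 391 in SB431542, 8 and 28 in the SIS3 libraries and 266 in E13.5 DMSO. As shares of each library these were 4.81 CPM (95% exact binomial interval 4.07 to 5.65), 13.9 CPM (12.54 to 15.3), 1.33 CPM (0.576 to 2.63), 2.97 CPM (1.97 to 4.29) and 15.2 CPM (13.4 to 17.1). The intervals cover counting error only. The SIS3 libraries were lowest, although the interval of the larger one overlaps that of E12.5 DMSO, and the intervals of SB431542 and E13.5 DMSO overlap each other and lie above those of the other libraries. For comparison, 22 homeobox genes of the jaw and tooth, such as Barx1 and Prrx1, summed to 4168 CPM in E12.5 DMSO.

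**Figure D1:**
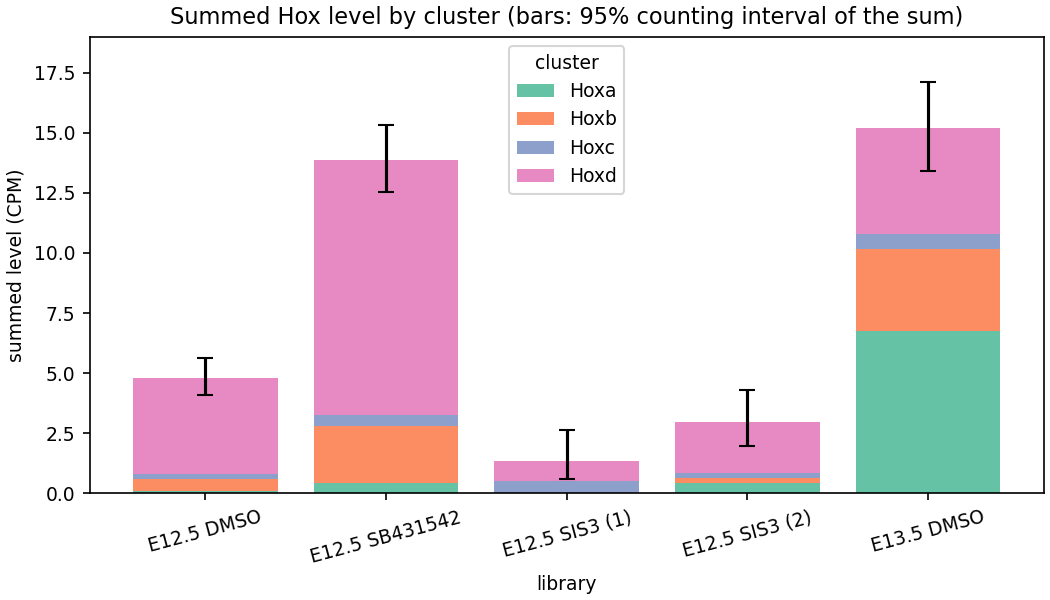
Summed level of the 39 Hox genes in each library in CPM (y axis, linear from 0), stacked by cluster, with the 95% counting interval of the sum as a bar. Hoxd makes up most of the sum in the E12.5 libraries, while Hoxa and Hoxb together make up most of the 15.2 CPM in E13.5 DMSO.

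Per kilobase of annotated exon, no Hox gene exceeded 2.51 CPM per kb, the level of Hoxd8 in SB431542. In E12.5 DMSO the highest was Hoxd8 at 0.918 CPM per kb, followed by Hoxd4 at 0.263 and Hoxd9 at 0.212, and in E13.5 DMSO the highest was Hoxa7 at 1.25. Barx1 and Prrx1, which pattern the jaw mesenchyme, stood at 206 and 134 CPM per kb in E12.5 DMSO. The median Hox gene was at 0.0058 CPM per kb in E12.5 DMSO, at 0.0253 in SB431542 and at 0 in the other libraries.

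**Figure D2:**
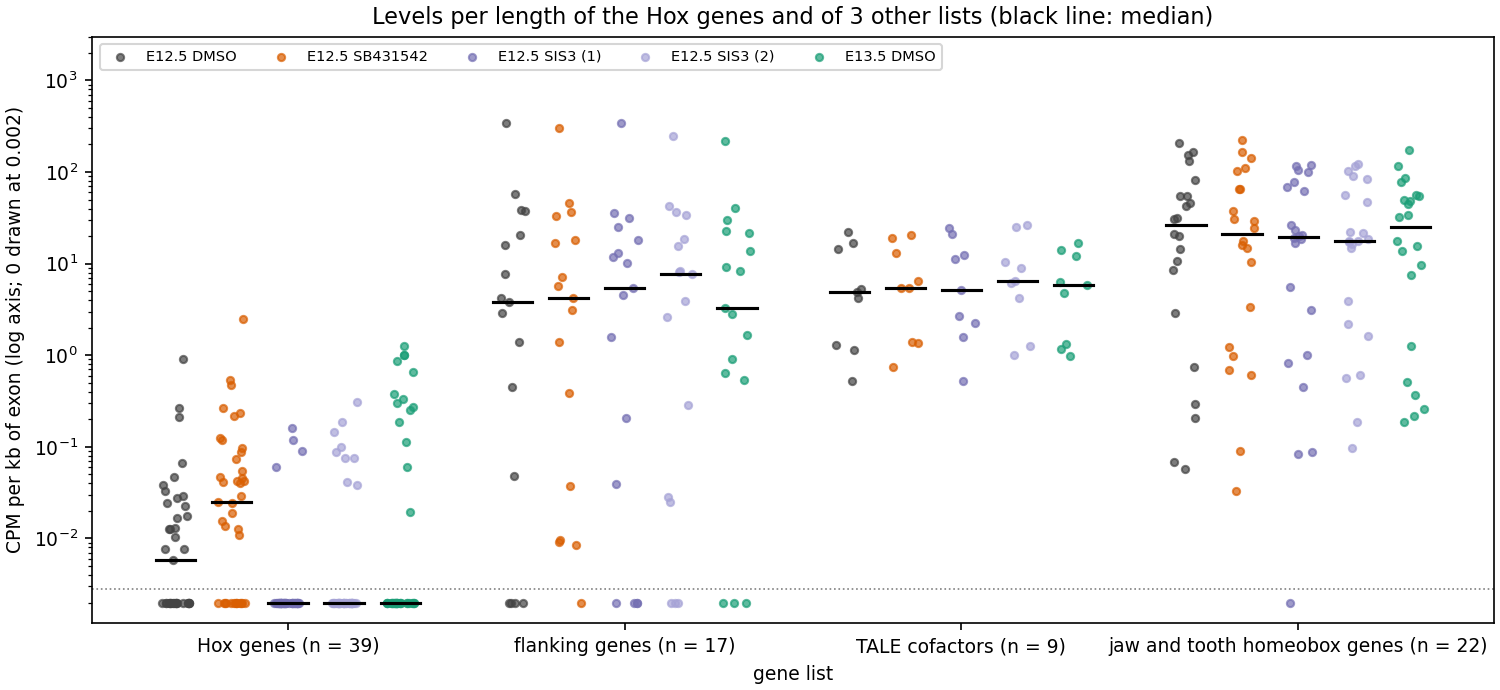
Level per kilobase of annotated exon (y axis, log scale, 0 drawn at 0.002) of each gene in each library for the Hox genes, the genes that flank the Hox clusters, the TALE cofactors of Hox proteins and the homeobox genes of jaw and tooth, with black lines at the medians. Every Hox point lies at or below 2.51 CPM per kb, while the median flanking gene is at 3.80 in E12.5 DMSO.

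Which Hox genes had counts differed between libraries. At least 1 count was found for 20 of 39 genes in E12.5 DMSO, 26 in SB431542, 4 and 9 in the SIS3 libraries and 14 in E13.5 DMSO. Over all 35896 genes in the table, 22483, 24680, 17966, 18528 and 19798 had a count, so SB431542 was highest there too. At least 10 counts were found for 3, 7, 0, 0 and 10 Hox genes in the same order. Depth differs between libraries, and thinned to the 5995709 counts of the smallest library the expected number with at least 1 count was 8.33, 16.4, 4, 7.88 and 12.9. Hoxd8 was the only Hox gene with a count in every library. In E13.5 DMSO 13 of the 14 genes with a count had one in both columns, whereas in E12.5 DMSO it was 7 of 20 and the genes seen in a single column had at most 2 counts.

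**Figure D3:**
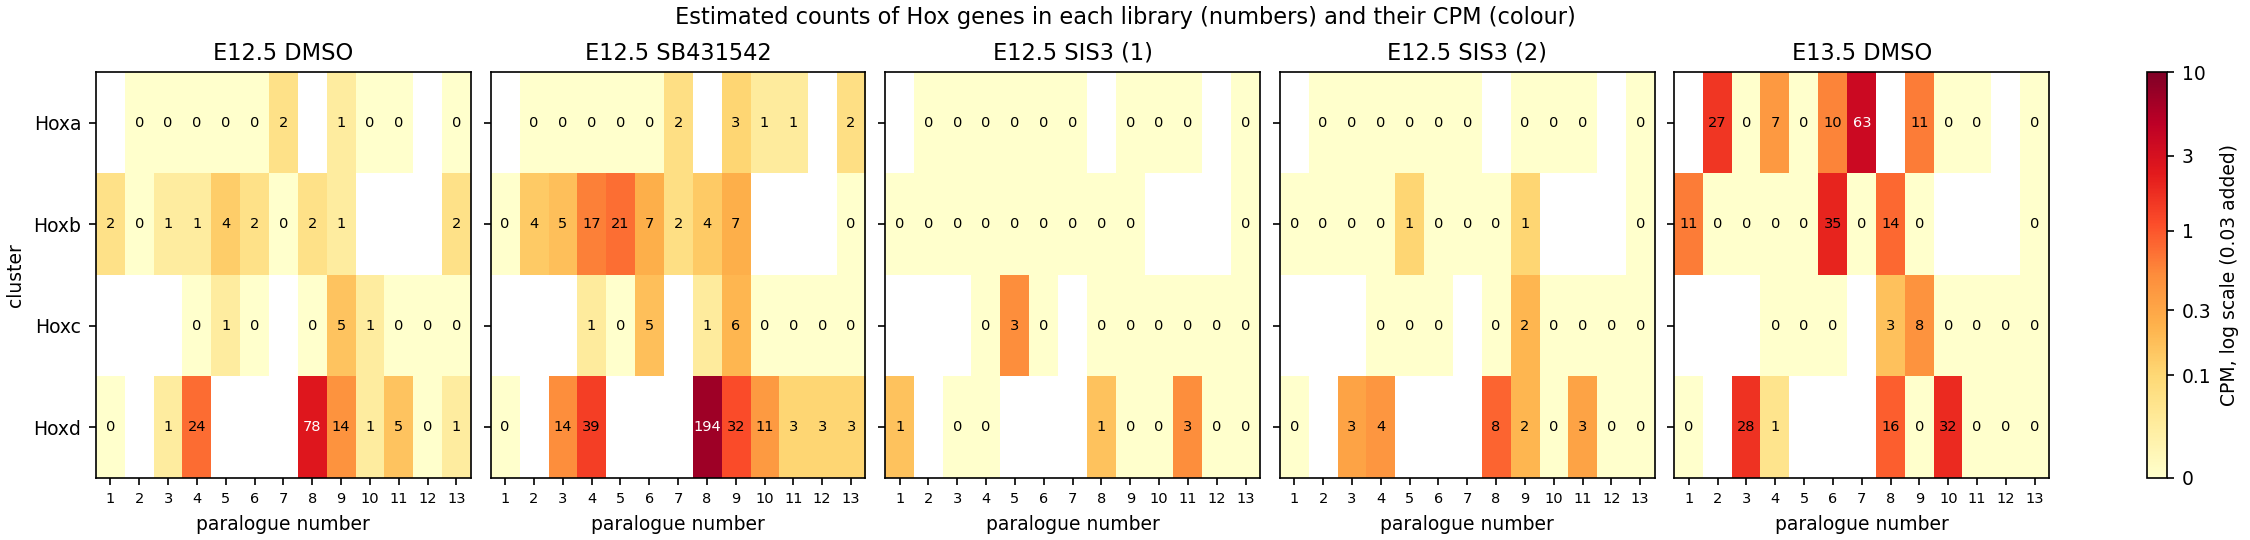
Counts of 38 Hox genes (numbers) and their level in CPM (colour, log scale) in each of the 5 libraries, by cluster (y axis) and paralogue number (x axis, blank where no gene is plotted). Hoxd8 holds 78 and 194 counts in the E12.5 DMSO and SB431542 libraries, and in E13.5 DMSO the highest counts are at Hoxa7, Hoxb6 and Hoxd10.

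By cluster, Hoxd held 83.2% of the Hox counts in E12.5 DMSO, 76.5% in SB431542, 62.5% and 71.4% in the SIS3 libraries and 28.9% in E13.5 DMSO. Hoxa held 2.01% in E12.5 DMSO and 44.4% in E13.5 DMSO, and Hoxb held 10.1% and 22.6%. The 9 Hoxc genes together reached at most 13 counts in any library. By paralogue number, the anterior genes (1 to 3) held 2.68% of Hox counts in E12.5 DMSO and 24.8% in E13.5 DMSO. The central genes (4 to 8) held 76.5% and 56.0%, and the posterior genes (9 to 13) held 20.8% and 19.2%. Central genes thus held the largest share at both stages in DMSO.

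The E12.5 counts came mostly from neighbouring genes at the centre of the Hoxd cluster. Hoxd8 (chromosome 2 from 74704615 to 74707933, plus strand), a central gene used in trunk and limb, had 78 counts in E12.5 DMSO, 194 in SB431542, 1 and 8 in the SIS3 libraries and 16 in E13.5 DMSO. It alone gave 52.3% of the Hox counts in E12.5 DMSO and 49.6% in SB431542. Hoxd4 (chromosome 2 from 74711929 to 74729160), which marks the caudal hindbrain, had 24, 39, 0, 4 and 1 counts in the same order of libraries. Hoxd9 (chromosome 2 from 74697727 to 74700208), a gene of trunk and proximal limb, had 14, 32, 0, 2 and 0 counts. These 3 genes gave 77.9% of Hox counts in E12.5 DMSO and 67.8% in SB431542, in the same order.

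Hoxd3 and Hoxd4 overlap on the same strand and with the readthrough gene Gm28230, and 61.1% and 49.1% of their 31-base words occur in another gene, so the split of reads between them is uncertain. Hoxd3 had 1, 14, 0, 3 and 28 counts and Gm28230 had 8, 15, 0, 0 and 26 counts, in the order used above. The 3 genes summed to 33 counts (1.07 CPM) in E12.5 DMSO, 68 (2.41 CPM) in SB431542, 0 and 7 in the SIS3 libraries and 55 (3.14 CPM) in E13.5 DMSO. The sum was thus higher in E13.5 DMSO than in E12.5 DMSO while Hoxd4 itself went from 24 counts to 1. Of the other members, 33 share under 5% of their words with another gene. Words were compared on the sense strand only. Hoxd8 overlaps the antisense gene Hoxd3os1, Hoxa7 overlaps Hoxaas3 and Hoxb6 overlaps Hoxb5os. These antisense genes are absent from the count table, and their part in the Hox counts was not tested.

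Another group had 10 or more counts in E13.5 DMSO and at most 3 in E12.5 DMSO, and it numbered 9 genes from 3 clusters. Hoxa7 (chromosome 6 from 52214491 to 52221854, minus strand), a gene of the thoracic trunk, had 2 counts in E12.5 DMSO, 2 in SB431542, 0 and 0 in the SIS3 libraries and 63 in E13.5 DMSO. Hoxb6 (chromosome 11 from 96292476 to 96301569, plus strand), also a trunk gene, had 2, 7, 0, 0 and 35 counts. Hoxd10 (chromosome 2 from 74691924 to 74695105, plus strand), a gene of the lumbar cord and limb, had 1, 11, 0, 0 and 32 counts. All 3 had over 20 counts in E13.5 DMSO and under 3 in E12.5 DMSO.

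Hoxa2 (chromosome 6 from 52162417 to 52164831, minus strand), which gives the second pharyngeal arch its identity and is silent in the first, was at 0 in every E12.5 library and had 27 counts in E13.5 DMSO, 9 in 1 column and 18 in the other. That level was at least 15.9-fold higher than the 3-count floor of E12.5 DMSO. It shares 13.7% of its 31-base words with the readthrough gene Gm28308, which was at 0 throughout. The rest of the 9 are Hoxd3, above, and Hoxb8, Hoxa9, Hoxb1 and Hoxa6. Hoxb8 had 2, 4, 0, 0 and 14 counts and Hoxa9 had 1, 3, 0, 0 and 11. Hoxb1, a gene of the fourth rhombomere of the hindbrain, had 2, 0, 0, 0 and 11 counts, and Hoxa6 was at 0 in every E12.5 library and had 10 counts in E13.5 DMSO. The last pair is therefore described by counts alone, since neither passed the filter for the test.

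Hoxb4 and Hoxb5 had their counts in SB431542. Hoxb4, a gene of the caudal hindbrain and neck, had 1, 17, 0, 0 and 0 counts, and Hoxb5 had 4, 21, 0, 1 and 0. Both were at 0 in E13.5 DMSO, where 3 counts correspond to 0.171 CPM.

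**Figure D4:**
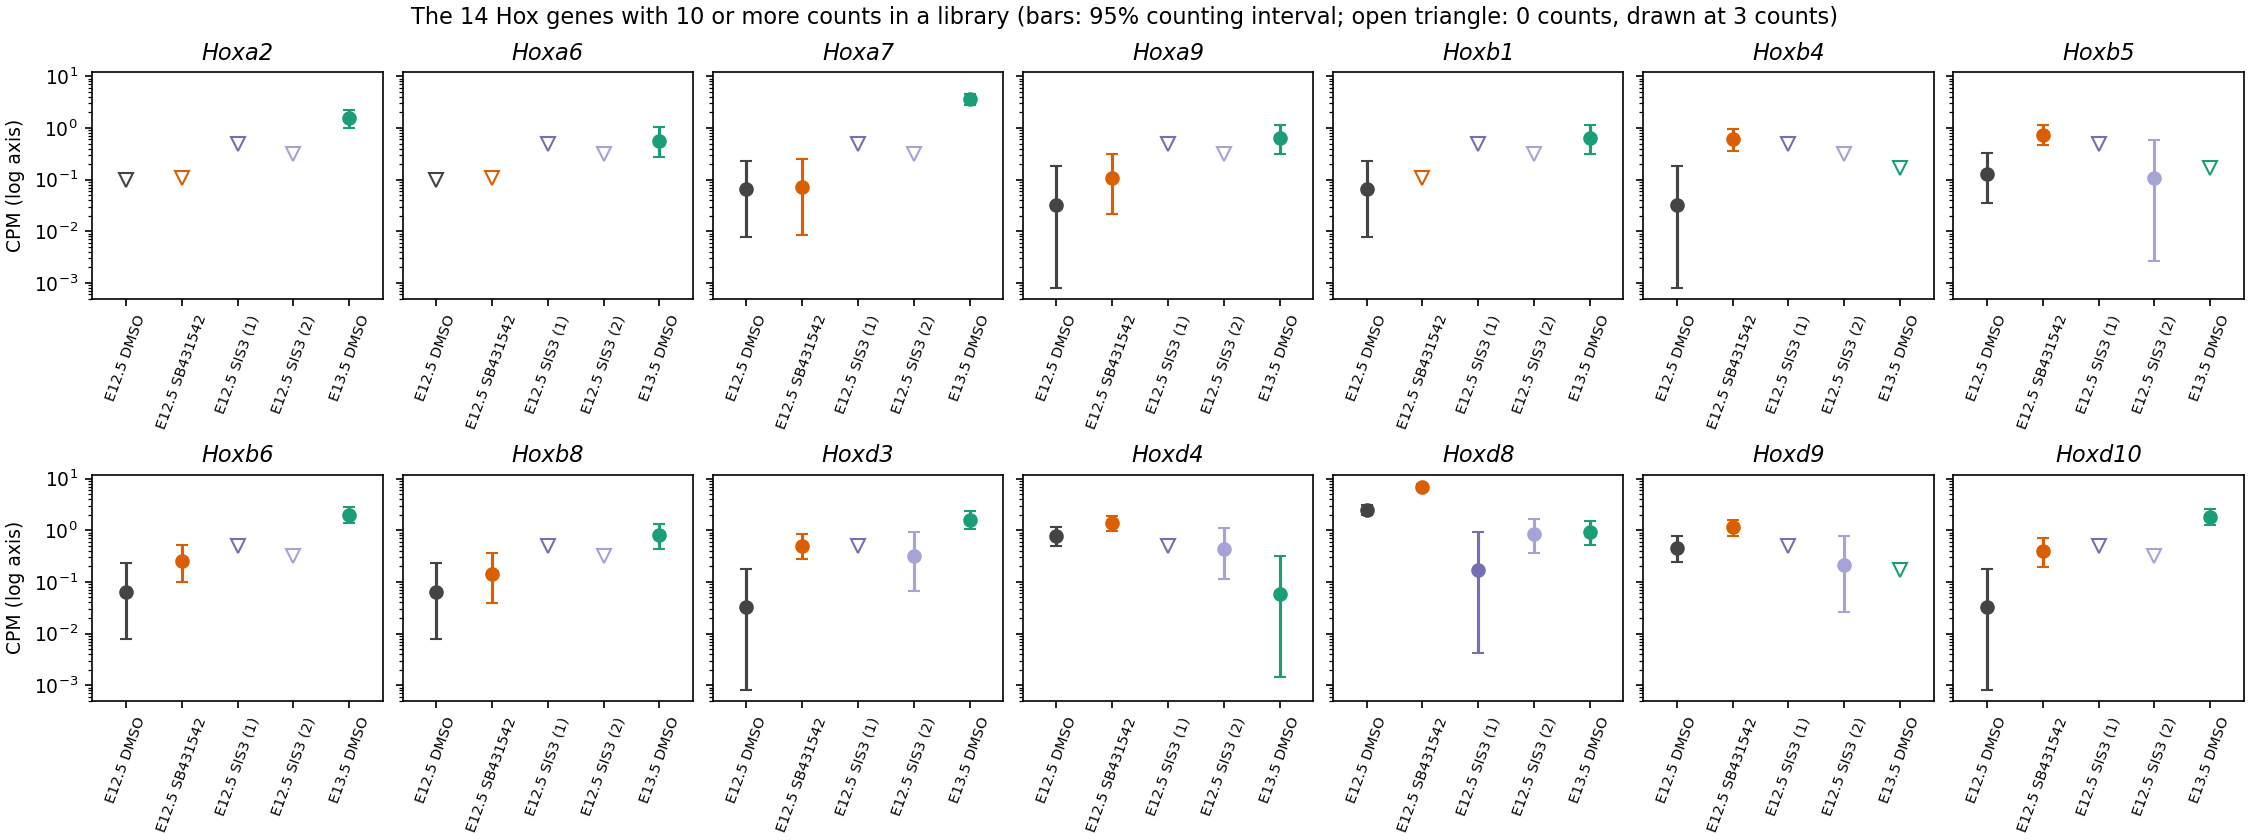
Level in CPM (y axis, log scale) of the 14 Hox genes with at least 10 counts in a library, with points for the 5 libraries, bars for the 95% counting interval, and open triangles at 3 counts where a library had 0. Hoxd8 is highest in SB431542 at 6.89 CPM, and Hoxa7 is highest in E13.5 DMSO at 3.596 CPM.

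The other 25 Hox genes never reached 10 counts. Hoxa3, Hoxa5, Hoxc11, Hoxc12 and Hoxc13 were at 0 in all 5 libraries. Hoxc9 reached 8 counts, Hoxa4 and Hoxb9 reached 7, and Hoxb3, Hoxc6 and Hoxd11 reached 5. Hoxb2 reached 4, Hoxc5, Hoxc8, Hoxd12 and Hoxd13 reached 3, and Hoxa13, Hoxb7 and Hoxb13 reached 2. Hoxa10, Hoxa11, Hoxc4, Hoxc10 and Hoxd1 had at most 1 count. At 0 counts, levels of up to 0.0969 CPM in E12.5 DMSO and up to 0.5004 CPM in the smaller SIS3 library were not detectable.

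Tests were possible for 12 of the 39 genes, all with at least 10 counts in a library, in a fit across all 19022 genes kept. Because they passed through the library in which they are high, their number, their medians and their count ratios describe them and support no difference. The 3 comparisons share the E12.5 DMSO library. In the first, which asked what blocking TGF-beta and activin receptors changes, the summed Hox level was 2.89-fold higher in SB431542 than in E12.5 DMSO (counting interval 2.38 to 3.51), and without Hoxd8 it was 3.05-fold higher (2.32 to 4.06). These intervals hold the counting error of 2 libraries and not the spread between cultures.

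Hoxd8 stood at 2.52 CPM in E12.5 DMSO and at 6.89 CPM in SB431542, with 40 and 38 counts in the DMSO columns and 96 and 98 in the SB431542 columns. Its counts gave a ratio of 2.74 (counting interval 2.09 to 3.61), and the fitted log2 difference was 1.40 (SE 1.01, adjusted p = 1). Hoxd4 gave a ratio of 1.79 (1.05 to 3.11) and Hoxd9 one of 2.51 (1.30 to 5.10). For Hoxb4, Hoxb5, Hoxd3 and Hoxd10 the ratios were 18.7, 5.77, 15.4 and 12.1, from at most 4 counts each in E12.5 DMSO. Their lower counting bounds were 2.93, 1.95, 2.34 and 1.76. These genes are named for their counts in SB431542 or E13.5 DMSO, so bounds above 1 support no difference.

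With edgeR's quasi-likelihood test and Benjamini-Hochberg adjustment, 0 of the 12 Hox genes passed in SB431542 against E12.5 DMSO, 0 had an unadjusted p under 0.05, and DESeq2 called 0. The background was the same, since 0% of the 19022 genes were called in this comparison, with an unadjusted p under 0.05 for 108 higher and 127 lower. Of the 12, 11 had a positive fitted difference and the median was 1.44, or 1.49 over the 11 with counts in both groups, against 0.0016 over all genes tested. Among genes with a count in either library, 25 of 30 Hox genes (83.3%) had a higher CPM in SB431542. The same held for 84.3% of 1084 olfactory and vomeronasal receptor genes, which serve in the nose and are a comparison set chosen with results known, and for 60.8% of all genes. The receptor genes took 0.525% of counts in E12.5 DMSO and 0.718% in SB431542, and their part in the Hox values was not tested. The dental epithelium markers, all 7 present in both libraries, summed to 102 CPM in E12.5 DMSO and 32.8 CPM in SB431542, and neural and Schwann markers to 28.3 and 26.8 CPM. Their part in the Hox values was not tested either.

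In the second comparison, of Smad3 inhibition by SIS3, the Hox sum of both SIS3 libraries together was 2.06-fold lower than in E12.5 DMSO (counting interval 1.42 to 3.05). Without Hoxd8 it was 1.31-fold lower with an interval from 0.830 to 2.12, which includes no difference. Hoxd8 was 4.32-fold lower by its counts (2.16 to 9.79), from 2.52 CPM in E12.5 DMSO to 0.167 and 0.849 CPM, and both SIS3 libraries lay below E12.5 DMSO. Its fitted log2 difference was -2.26 (SE 0.95, unadjusted p = 0.0329, adjusted p = 0.242). Hoxd11, a posterior gene of the limb, had 3 counts in each SIS3 library against 5 in E12.5 DMSO, which is the deeper library. Scaled to depth, Hoxd11 was 2.41-fold higher in both SIS3 libraries together, with an interval from 0.613 to 9.98, which includes no difference.

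In SIS3 against E12.5 DMSO, 0 of the 12 Hox genes passed edgeR's test, where 3.82% of all genes tested were called, 0.794% higher and 3.03% lower. Hoxd8 was the single member with an unadjusted p under 0.05, and DESeq2 called 0. With all 8 columns taken as separate replicates, Hoxd8 passed as lower (log2 difference -2.19, adjusted p = 0.0335). The share of all genes called in that 8-column fit is not given here. Of the 12, 10 had a negative and 1 a positive fitted difference. Most of those rest on a group at 0, and over the 5 with counts in both groups the median was -1.72, against 0 over all genes. All 8 endothelial markers were lower in the SIS3 libraries in the same test, with a summed level of 402 CPM in E12.5 DMSO and 44.7 and 36.6 CPM in SIS3. Of the 8 macrophage markers 4 were lower, with sums of 53.8 CPM against 5.84 and 3.82 CPM, C1qa at 0 in 1 SIS3 library and C1qb, C1qc and Cx3cr1 at 0 in the other. Of the 7 skeletal muscle markers 2, Ttn and Myh3, were lower (adjusted p = 0.00437 and 0.00902), with sums of 711 CPM against 258 and 212 CPM and none at 0. Their part in the Hox values was not tested, and the kit cannot be told apart from them.

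In the third comparison, of the 2 stages in DMSO, the Hox sum was 3.16-fold higher in E13.5 DMSO than in E12.5 DMSO (counting interval 2.57 to 3.88). The leading genes were Hoxd8, Hoxd4 and Hoxd9 in E12.5 DMSO and Hoxa7, Hoxb6 and Hoxd10 in E13.5 DMSO. Hoxd8 was the 1 Hox gene with 10 or more counts in both, of 3 in E12.5 DMSO and 10 in E13.5 DMSO. Those were 7.69% and 25.6% of the Hox genes, against 47.1% and 48.9% of all genes. The share of all genes with 10 or more in both is not given here, so the small overlap is only described. The Hoxa cluster went from 3 counts (0.0969 CPM) to 118 (6.74 CPM), and Hoxb from 0.484 to 3.42 CPM, a ratio of 7.07 (3.97 to 13.4). The Hoxd sum was 4.003 CPM at E12.5 and 4.40 CPM at E13.5, a ratio of 1.10 with an interval from 0.815 to 1.47. Within Hoxd, Hoxd8 was 2.76-fold lower (1.60 to 5.06) at E13.5 by its counts and Hoxd9, at 0, was at least 2.64-fold lower, while Hoxd10 was 56.6-fold higher (9.45 to 2304).

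Hoxa7 stood at 0.0646 CPM in E12.5 DMSO and at 3.596 CPM in E13.5 DMSO, with 29 and 34 counts in the E13.5 columns and 0 and 2 in the E12.5 columns. Its fitted log2 difference was 5.69 (SE 1.72, unadjusted p = 0.00595, adjusted p = 0.0736). Hoxb6, at 1 count in each E12.5 column and 22 and 13 in the E13.5 columns, had a difference of 4.84 (SE 1.86, adjusted p = 0.139). For Hoxd10 it was 5.59 (SE 2.01, adjusted p = 0.121) and for Hoxd3 5.39 (SE 2.02, adjusted p = 0.127), the latter with the uncertain split. For Hoxd8 it was -1.43 (SE 1.06, adjusted p = 0.446), with 13 and 3 counts in the E13.5 columns.

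By edgeR's test 0 of the 12 Hox genes passed between the stages, where 5.23% of all genes tested were called, 4.06% higher and 1.17% lower, and DESeq2 called 0. An unadjusted p under 0.05 was found for 5, all higher at E13.5, namely Hoxa2, Hoxa7, Hoxb6, Hoxd3 and Hoxd10. Of the 12, 7 had a positive and 5 a negative difference. The median was 3.79, or 4.02 over the 10 that have counts in both groups or a bound from the 3-count floor, against -0.00075 over all genes. With no filter beyond 1 count Hoxa7 passed (adjusted p = 0.0242). With all 8 columns taken as separate replicates, as the labels number them, Hoxa2, Hoxa7, Hoxb6, Hoxd3 and Hoxd10 passed as higher. Hoxd4 and Hoxd9 passed as lower. That 8-column fit tested 8 Hox genes among 17748 genes. The 5.23% belongs to the fit of summed libraries, and the shares of all genes called in these alternatives are not given here.

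The share of genes with 10 or more counts in E13.5 DMSO and at most 3 in E12.5 DMSO was 23.1% of the Hox genes (9 of 39), 9.30% of the receptor genes (163 of 1753) and 4.73% of all genes in the table. Genes with 10 or more counts in E12.5 DMSO cannot meet this rule. They made up 7.69% of the Hox genes, 25.2% of the receptor genes and 47.1% of all genes. The shares therefore rest on unlike baselines, and a share among genes low at E12.5 is not given here. The receptor genes together took 0.525% of counts in E12.5 DMSO and 1.98% in E13.5 DMSO. Hoxa7 at its highest, in E13.5 DMSO, was matched or exceeded per kilobase by 17.7% of the 1749 receptor genes with an annotated length, and Hoxd8 in E12.5 DMSO by 9.38%. Of 7 skeletal muscle markers 2 were lower at E13.5 by edgeR's test, Myod1 from 239 counts to 0 (adjusted p = 0.00380) and Pax7 from 111 to 0 (adjusted p = 0.0227), while the list summed to 711 CPM at E12.5 and 768 CPM at E13.5. Erythroid markers summed to 428 CPM at E12.5 and 94.7 CPM at E13.5 with 1 of 6 lower by the test and 1 at 0, macrophage markers to 53.8 and 97.4 CPM with none at 0, and neural and Schwann markers to 28.3 and 29.5 CPM, with 1 of 8 at 0 at E13.5. The part of these in the Hox values was not tested.

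The partners and regulators of Hox proteins summed to higher levels than the Hox genes in every library. The 9 TALE cofactors, which bind DNA together with Hox proteins, summed to 590 CPM in E12.5 DMSO, 605 in SB431542, 678 and 741 in SIS3 and 512 in E13.5 DMSO. Among them, Pbx3 was at 101 CPM and Meis2 at 50.5 CPM in E12.5 DMSO. All 17 Polycomb genes listed had counts in every library and summed to between 1387 and 1536 CPM. In each comparison 0 of the 9 TALE and 0 of the 17 Polycomb genes passed the test.

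Of 12 activators of Hox clusters, 9 were tested and 0 passed in any comparison. Kmt2a, which maintains active Hox chromatin, was at 370 CPM in E12.5 DMSO, and Egr2, which switches on Hox genes in hindbrain segments, was at 25.9 CPM. The caudal factors Cdx1 and Cdx4 were at 0 in all 5 libraries, and Cdx2 had at most 3 counts. Of 17 genes that flank the clusters, 14 were tested and 0 passed, and their median level was 3.80 CPM per kb in E12.5 DMSO. One of them, Calcoco2, had the count pattern of Hoxa2, at 0 in every E12.5 library and at 26 counts in E13.5 DMSO. Its fitted log2 difference between the stages was 7.83 (SE 2.72, edgeR adjusted p = 0.110), while the median over the 14 was 0.129. Evx1 and Evx2, the even-skipped homologues at the posterior ends of Hoxa and Hoxd, had at most 3 counts in any library. Of the 22 homeobox genes of jaw and tooth, 0 passed in SB431542 and 0 at E13.5, and Dlx2 (-1.33, adjusted p = 0.0465) and Dlx3 (-3.04, adjusted p = 0.0250) were lower in SIS3 by edgeR's test.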

How the data were processed

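RNA-seq of cultured molar tooth germs was analysed from 1 table of estimated counts per gene that the authors deposited, with 8 columns, of which 0 were left unused. Per the submitters' processing notes, the build was mm10 and Salmon, DESeq2, HISAT2, deepTools and SAMtools were used, with no version or role given. No source used here gives the annotation behind the table. The table holds whole numbers, protein-coding genes and pseudogenes. It holds 0 of the 17 listed non-coding transcripts of the Hox clusters, which were therefore not analysed here. Positions and exon lengths are from GENCODE M21 (GRCm38), which matched 35437 of 35896 genes.

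The 2 columns of a group were summed to 1 library where, over protein-coding genes with 1 transcript, the median squared difference was under 1.5 times its binomial value (1.08, 1.12 and 1.15 in the SMARTer groups, 8.94 in SIS3). edgeR 4.0.16 (R 4.3.3) was run on the counts of the 5 libraries with TMM scaling, filterByExpr, the robust quasi-likelihood F test and Benjamini-Hochberg adjustment over 19022 genes, called under 0.05. Residual degrees of freedom number 1, which the SIS3 pair supplies, and the median prior degrees of freedom, pooled over genes, are 12.5. The common biological coefficient of variation is 29.3%. DESeq2 1.42.0, RLE scaling, no filter, all 8 columns as replicates, a replicate block, fits of only the groups compared and left-out columns were the alternatives. The script was tested on simulated data. Replicate numbers did not pair the columns (correlations of deviations from -0.0063 to 0.0382 over 11813 genes). Count ratios carry an exact 95% binomial interval, and a group at 0 was set to a floor of 3 counts. Hox genes with 10 or more counts in a library are named with every value, the others with their highest count, and at most 10 with full statistics, except 1 gene that is not reported here. The members, the gene lists and the comparison set of receptor genes were chosen with earlier results of these data known.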

Additional observations from a re-analysis of the deposited data

How the results depend on the processing

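Of 393 fitted differences of single Hox genes under the alternatives, 282 have an adjusted p, of which 277 kept their direction, 2 changed it and 3 were at 0, and 14 passed the threshold only there. The other 111 have no adjusted p, and 110 of them kept their direction and 1 changed it. With all 8 columns as replicates, 1 Hox gene (Hoxd8) was lower in SIS3 and 7 differed between the stages, 5 higher and 2 lower, and with no filter beyond 1 count 1 gene (Hoxa7) was higher at E13.5. With the replicate block on all 8 columns, 5 Hox genes were higher at E13.5, and 0 were called in SB431542 or SIS3. The shares of all genes called in these alternative fits are not given here. Whether the paired columns are separate libraries is not stated, and the calls from all 8 columns rest on taking them so. The Hoxa7 call with no filter came from the summed libraries and does not rest on that. The fitted difference of Hoxa7 in SB431542, 0.08 in the summed libraries, ran from -3.19 to 3.25 when columns were left out in turn, with -0.84 without 1 E12.5 DMSO column and -3.19 without 1 SB431542 column, from 2 counts in each library, and the cause was not tested. The called count was 0 in every comparison when a column of a SMARTer group was left out, a range from 0 to 0. Leaving out a SIS3 library leaves no residual degrees of freedom and gave values with no test, as did the fits of SB431542 or E13.5 DMSO against E12.5 DMSO alone, which were not run as tests. Without the larger SIS3 library 5 fitted differences in SIS3 moved, that of Hoxd8 from -2.26 to -3.92 and that of Hoxd3, the only positive one, from 2.22 to -2.68. The number of Hox genes detected, at 10 counts 3 in E12.5 DMSO, 7 in SB431542, 0 in both SIS3 libraries and 10 in E13.5 DMSO, was 20, 26, 4 and 9 in the E12.5 libraries at 1 count. It was 1 in E12.5 DMSO, 3 in SB431542 and 5 in E13.5 DMSO at 1 CPM, and 0.962, 1.44 and 3.49 when those libraries were thinned to the smallest one, which holds fewer counts by construction. The summed level per kilobase was 0.135 CPM per kb in SB431542 and 0.148 in E13.5 DMSO, and 0.156 and 0.171 with the longest transcript as the length. The summed level in CPM moved by less than its counting interval under TMM or RLE scaling in all 5 libraries. Depth limits the SIS3 libraries most, where a gene at 0 may stand at up to 0.5004 or 0.318 CPM.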

Other observations

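Of 11 further genes of trunk, limb and pharyngeal pouch, 8 were tested and 1 passed edgeR's test in a comparison. Meox1, a somite homeobox gene, was at 9.30 CPM in E12.5 DMSO, 1.88 in SB431542, 1.501 and 0.955 in the SIS3 libraries and 8.16 in E13.5 DMSO, and was lower in SIS3 (log2 difference -3.01, SE 0.71, adjusted p = 0.0322). Pax3, a gene of neural crest and somites, was at 19.8 CPM in E12.5 DMSO, 45.0 in SB431542, 26.2 and 56.1 in SIS3 and 14.4 in E13.5 DMSO, with an adjusted p of 0.334 in SIS3 and 1 in SB431542. Tbx5, which marks the forelimb, had at most 4 counts in any library, whereas Tbx4 had 55 and Meox2 488 counts in E12.5 DMSO. From E12.5 DMSO to E13.5 DMSO, Gcm2 went from 0 to 21 counts and T from 6 to 21. Tbx6 went from 14 to 0 and Meox2 from 488 to 124, and none of these passed edgeR's test.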
